A study of Arabidopsis thaliana with 84 samples.

Results

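The effect of methionine sulfoximine (MSX) on transcript levels was examined in pericycle cells of Arabidopsis thaliana roots during continuous nitrate supply. It was read from 6 Affymetrix ATH1 arrays of the 84 in the series, chosen by their labels: 3 arrays of cells given nitrate with MSX and 3 of cells given nitrate alone. All plants were Col-0, 12 days old, grown hydroponically with a small supply of ammonium succinate as the sole nitrogen source. In the nitrate with MSX group, 5 mM KNO3 and 1 mM MSX were added for 2 h. In the nitrate group, 5 mM KNO3 was added for 2 h without MSX. Continuous means that the agents were kept in the solution in which cell walls were digested for 1 h before fluorescence-activated sorting. Of the 18 pericycle arrays, the others held nitrate with MSX and 5 mM glutamine, transitory nitrate (left out of the digestion solution), KCl with MSX, and KCl, with 3 arrays each. The labels call the replicates biological and do not name the reporter line used for sorting.

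The pericycle is the cell layer around the root vasculature from which lateral roots arise, and it lies on the path by which nitrate is loaded into the xylem. Nitrate is itself a signal for root cells. It is reduced to ammonium, which glutamine synthetase joins to glutamate to make glutamine. MSX inhibits glutamine synthetase, so nitrate can still enter and be reduced while glutamine synthesis is blocked and ammonium can accumulate. The comparison asks which transcripts of the nitrate-treated cells differ when assimilation beyond ammonium is blocked.

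The arrays of the compared groups did not fall cleanly by label. Replicate 2 of nitrate with MSX correlated at 0.87 and 0.88 with replicates 1 and 2 of nitrate alone, and at 0.80 and 0.77 with replicates 1 and 3 of its own group. Replicate 3 of nitrate alone correlated at 0.70 and 0.64 with the other two arrays of its group, which correlated at 0.95 with each other. Mean array signal was 183, 291 and 176 with MSX, against 322, 373 and 206 in nitrate alone, so the ranges overlapped while the 2 brightest arrays were of nitrate alone. RNA quality, read as the 3' minus 5' difference of the GAPDH controls in log2 units, overlapped too (3.38, 3.16 and 3.84 with MSX, against 2.90, 2.81 and 4.14). Set against the mean profiles of the 5 sorted populations in KCl, replicates 1 and 3 with MSX were nearest to pericycle (0.91 and 0.95). Replicate 2 with MSX and replicates 1 and 2 of nitrate alone were nearest to the sort of endodermis and pericycle (0.89, 0.93 and 0.90). Replicate 3 of nitrate alone was near to none, at no more than 0.72. The part of array signal and array profile in the differences below was not tested apart from the fits without single arrays and with array signal as a covariate.

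**Figure D1:**
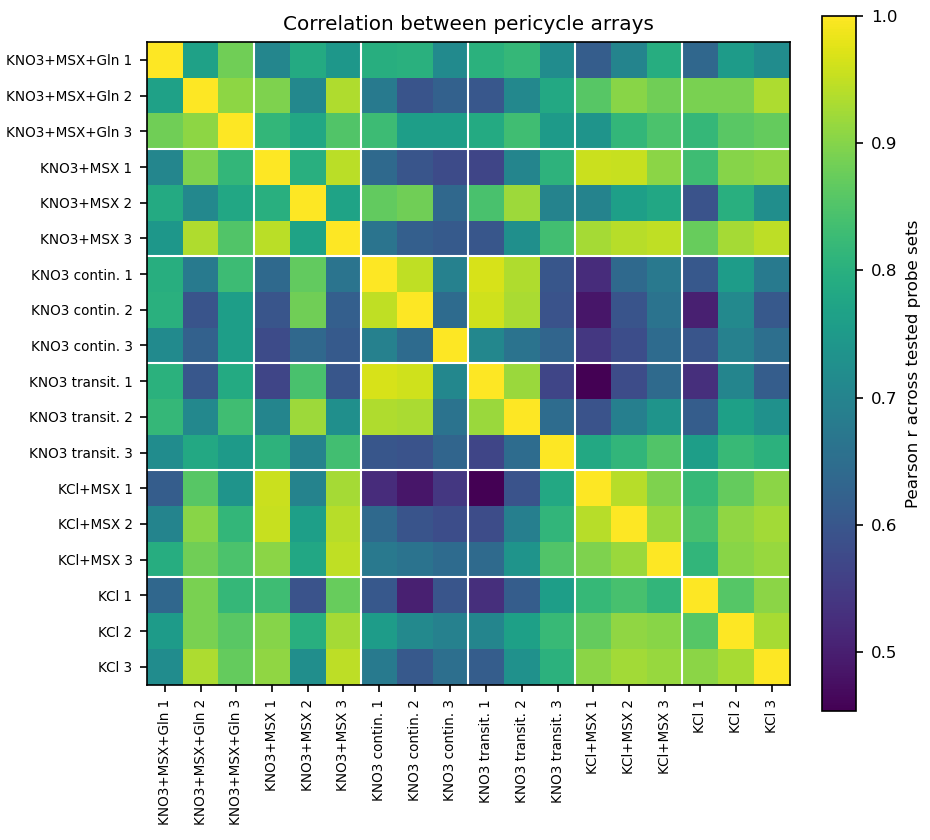
Pearson correlation across the 19258 tested probe sets between the 18 pericycle arrays, with white lines between groups of 3 replicates. Replicate 2 of KNO3+MSX is closer to replicates 1 and 2 of continuous KNO3 (0.87 and 0.88) than to its own group (0.80 and 0.77).

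The pericycle label was checked against XPP (AT4G30450, a xylem-pole pericycle marker named here from the locus list), the single pericycle marker with a named probe set. In KCl it stood at 9.84 ± 0.66 (SD, n = 3) log2 units in sorted pericycle and 9.07 ± 0.80 in sorted endodermis and pericycle, against 6.49 to 6.74 in the other sorts. It read 8.32, 8.10 and 10.14 in nitrate with MSX, against 8.68, 8.02 and 6.40 in nitrate alone, a difference of 1.15 (SE 0.51, limma adjusted p = 0.136). Replicate 3 of nitrate alone was therefore at the level of the sorts not enriched for pericycle. In sorted bulk samples, fewer cells of a type and less RNA per cell cannot be told apart.

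With MSX, 1158 of 19258 probe sets were higher and 607 were lower than in nitrate alone (limma, adjusted p under 0.05). These were 6.01% and 3.15% of those tested, and 9.17% together. Unlike replicates 1 and 3 with MSX, the arrays of nitrate alone were not nearest to the pericycle sort. The part of cell composition in these counts was not tested. At an unadjusted p under 0.05 there were 5243, where 963 would be expected by chance. Arrays of the 2 groups did not overlap for 5326 probe sets (27.7%), higher with MSX in 16.4% and lower in 11.3%. The median difference over all probe sets was -0.03 log2 units. Of the 1388 tested genes that carry a symbol, 112 rose (8.07%) and 35 fell (2.52%). The count moved with single arrays: it was 237 without replicate 1 with MSX, 3374 without replicate 2 and 660 without replicate 3. Without replicate 1 or replicate 2 of nitrate alone it was 859 and 1042. Without both replicate 2 with MSX and replicate 3 of nitrate alone it was 3982. With array signal as a covariate it was 448, of which 385 were among the 1765. Every one of the 1765 kept its direction in those fits without replicate 2, without both arrays and with the covariate. Those fits use all or most of the arrays that made the calls, so the kept direction is no separate evidence. On the values as deposited, without quantile normalization, 744 rose and 1689 fell, and the median of all probe sets was -0.37; here the split is 65.6% higher and there it was 30.6%.

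Among the probe sets that rose, replicate 2 with MSX lay above both replicates 1 and 2 of nitrate alone, the arrays it otherwise resembled, in 1139 of 1158 (98.4%, against 40.6% of all probe sets). Among those that fell it lay below both in 605 of 607 (99.7%, against 37.9% of all). These arrays made the calls, so the shares describe them and are no test. The median distance from the mean of those arrays was 1.19 log2 units for replicate 2 among rises, and 1.84 for the mean of replicates 1 and 3. The median level of the rises in each array was 9.48, 8.56 and 9.09 with MSX, against 7.28, 7.32 and 6.95 in nitrate alone. For the falls it was 6.69, 7.16 and 6.75 with MSX, against 8.52, 8.50 and 8.44.

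Among gene families, rises were found in the UDP-glycosyltransferases, enzymes that attach sugars to hormones, flavonoids and other small molecules. Of 41 measured members 7 rose and none fell, where 8.07% of genes with a symbol rose, and the family's median was 0.47 against -0.03 for all probe sets. UGT73B5 (AT2G15480) read 9.69, 9.38 and 8.95 in nitrate with MSX, against 6.80, 6.86 and 6.04 in nitrate alone. The groups lay more than 2 log2 units apart, with replicate 2 inside its own group. The difference was 2.77 (6.84-fold, SE 0.38, adjusted p = 3.45e-05), the smallest p of the whole comparison. UGT76D1 (AT2G26480) read 8.97, 8.13 and 8.12 with MSX, against 6.26, 6.84 and 5.71, a difference of 2.14 (SE 0.37, adjusted p = 4.49e-04). UGT71C1 (AT2G29750) rose by 2.65 (SE 0.58) and UGT73D1 (AT3G53150) by 2.64 (SE 0.46). UGT73C7, UGT73B4 and UGT71B8 rose by 2.2, 1.93 and 0.97. Without replicate 1 with MSX, 4 of the 7 passed (UGT73B5, UGT76D1, UGT71C1 and UGT73D1), and these passed whichever of the 6 arrays was left out.

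Glutathione transferases, which conjugate glutathione to reactive compounds, had 4 of 12 members that rose and none that fell, where 8.07% of genes with a symbol rose, with a median of 0.87. GSTU22 (AT1G78340) read 11.73, 11.54 and 9.67 in nitrate with MSX, against 7.74, 8.42 and 7.86 in nitrate alone. Replicate 3 with MSX was the lowest of its group and still above every array of nitrate alone. The difference was 2.98 (7.87-fold, SE 0.57, adjusted p = 0.00125). GSTU21, GSTU16 and GSTU28 rose by 1.90, 1.37 and 1.29, and of the 4 GSTU22 alone passed without replicate 1 with MSX. The symbol stem CYP gathered 20 genes, cytochrome P450 genes apart from the cyclophilins CYP71 (AT3G44600) and CYP59 (AT1G53720). Of these 20, CYP71B6 rose by 1.92 and CYP718 fell by 1.58, close to the 9.17% called over all probe sets. Neither passed without replicate 1 with MSX.

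**Figure D2:**
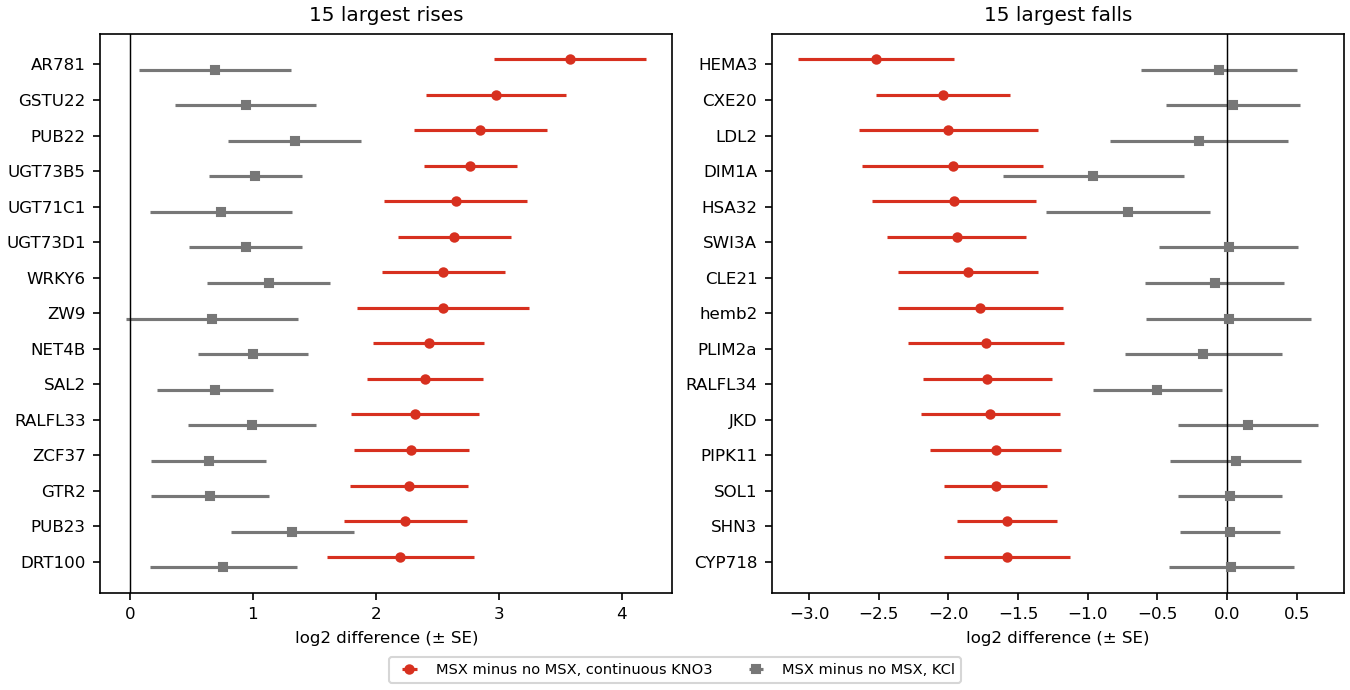
Log2 difference with its SE for the 15 largest rises (left) and the 15 largest falls (right) among genes with a symbol, in continuous KNO3 (red circles, KNO3 with MSX minus KNO3) and in KCl (grey squares, KCl with MSX minus KCl), 3 arrays a group. All 15 rises are also positive in KCl, between 0.64 and 1.34, whereas 8 of the 15 falls are at or above 0 there.

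Regulators known from defence signalling were among the other large rises. PUB22 (AT3G52450) and PUB23 (AT2G35930) encode U-box ubiquitin ligases that dampen immune signalling. PUB22 read 11.98, 11.84 and 11.61 with MSX, against 9.11, 9.39 and 8.40 in nitrate alone, with no array of one group within 2 log2 units of the other group. It rose by 2.85 (7.2-fold, SE 0.54, adjusted p = 0.00107) and PUB23 by 2.24 (SE 0.50). In the U-box family, grouped after the values were seen, 4 of 9 members rose and none fell, where 8.07% of genes with a symbol rose. The rises included PUB24 (1.78) and PUB19 (1.5), and without replicate 1 with MSX all 4 but PUB19 passed. In the family 6 of 9 differences were positive, while PUB43 (-1.08) and PUB49 (-0.87) were negative and did not pass. WRKY6 (AT1G62300), a transcription factor of senescence and defence, read 10.52, 9.61 and 9.34 with MSX, against 6.97, 7.67 and 7.18. It rose by 2.55 (SE 0.50, adjusted p = 0.0014). Of 6 WRKY factors 3 rose (8.07% of genes with a symbol did), the others being WRKY22 (1.52) and WRKY53 (1.27), and without replicate 1 with MSX only WRKY6 of these passed. STZ (AT1G27730), a zinc-finger repressor induced by many stresses, read 12.39, 12.15 and 12.39 with MSX, against 10.99, 11.02 and 10.27, and rose by 1.55 (SE 0.45, adjusted p = 0.0247). It missed the threshold without replicate 1 with MSX (adjusted p = 0.118). STZ and WRKY53 are the measured members, 2 of 11, of the stress and defence list.

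Calcium sensors and signalling peptides were grouped after the values were seen, so their counts are no test. Of all genes with a symbol, 8.07% rose and 2.52% fell. Of 7 calmodulin-like genes 3 rose, CML38 by 1.98, CML23 by 1.91 and CML37 by 1.5, and none passed without replicate 1 with MSX. Of 10 RALF-like peptide genes, whose products act as extracellular ligands of receptor kinases, 2 rose and 1 fell. RALFL22 rose by 1.46. RALFL33 (AT4G15800) read 10.20, 8.72 and 10.12 with MSX, against 7.32, 7.57 and 7.16, and rose by 2.32 (SE 0.52, adjusted p = 0.00422). RALFL34 (AT5G67070), known for a role in lateral root initiation, read 7.23, 7.09 and 7.56 with MSX, against 8.79, 8.62 and 9.64. Its groups did not overlap, and it fell by 1.72 (SE 0.46, adjusted p = 0.0155). Without replicate 1 with MSX none of the 3 passed, with adjusted p values of 0.0608 for RALFL33 and 0.0875 for RALFL34.

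The other large rises were of varied function. AR781 (AT2G26530) had the largest difference among genes with a symbol: 11.32, 10.66 and 10.68 with MSX, against 7.62, 7.95 and 6.36 in nitrate alone. This was a rise of 3.58 (11.9-fold, SE 0.62, adjusted p = 4.56e-04). GTR2 (AT5G62680), a glucosinolate transporter of the nitrate and peptide transporter family, read 10.19, 10.06 and 10.68 with MSX, against 8.08, 8.88 and 7.16, and rose by 2.27 (SE 0.48). NET4B (AT2G30500), an actin-binding protein of the NETWORKED family, rose by 2.43, and SAL2 (AT5G64000), a relative of the SAL1 phosphatase, by 2.4. ZCF37 (AT1G59590) rose by 2.29, ZW9 (AT1G58270) by 2.55 and DRT100 (AT3G12610), a leucine-rich repeat protein, by 2.2. Of the 15 largest rises, 12 passed whichever of the 6 arrays was left out. The exceptions were ZW9, DRT100 and RALFL33, each of which was lost without replicate 1 with MSX (adjusted p = 0.0982, 0.0742 and 0.0608).

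**Figure D3:**
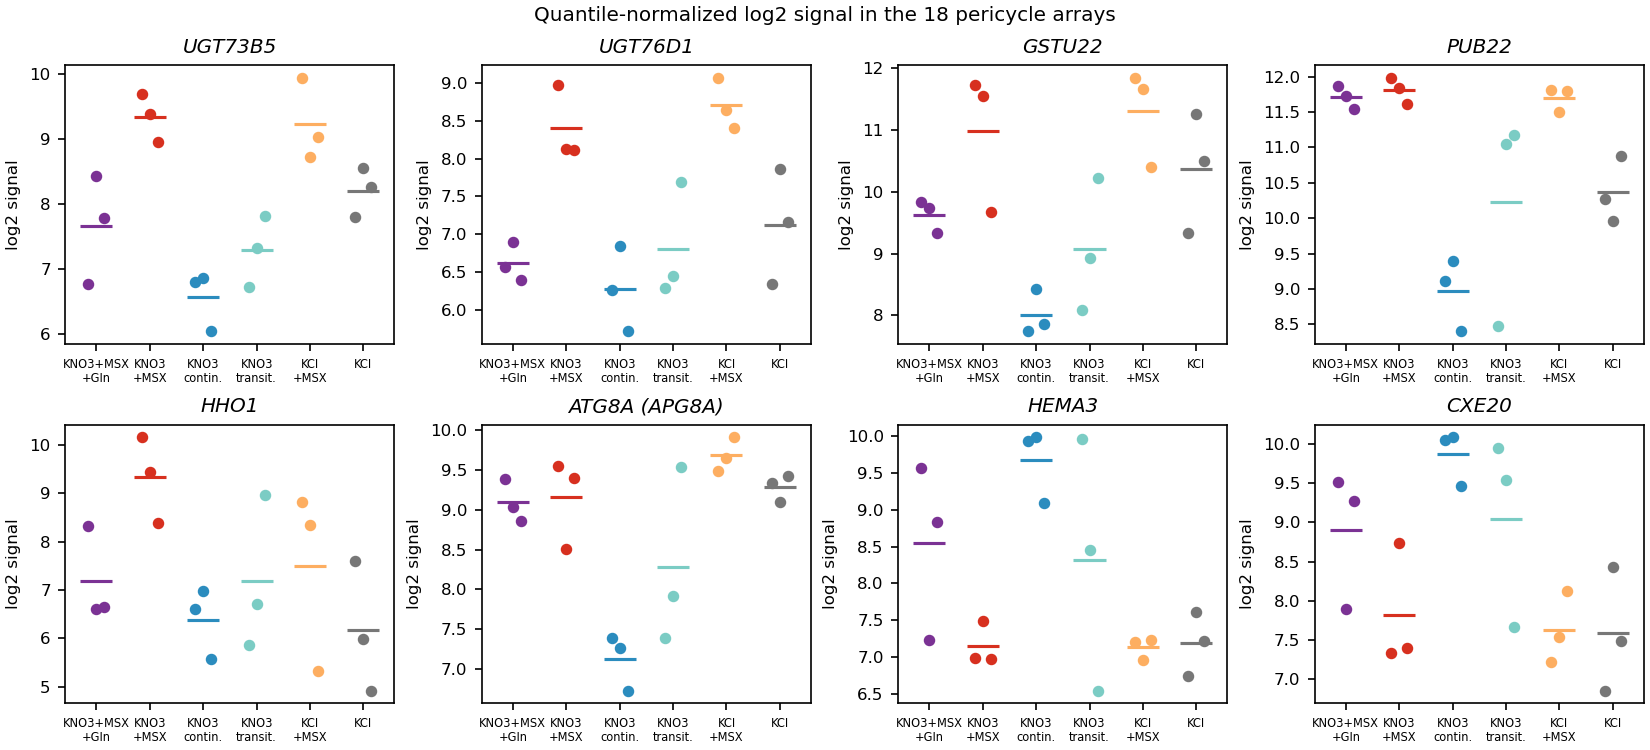
Quantile-normalized log2 signal of 8 genes in each of the 18 pericycle arrays (points) with the group mean (line), 3 arrays a group. In the first 6 panels every KNO3 with MSX array lies above every continuous KNO3 array, and in the panels of HEMA3 and CXE20 every one lies below.

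Autophagy recycles proteins and organelles, and in plants it is induced by nitrogen shortage. ATG8 proteins are the ubiquitin-like markers that coat its membranes. Of 10 measured autophagy genes 5 rose and none fell, where 8.07% of genes with a symbol rose. Their median was 1.33, and 9 of 10 were positive, as were 9360 of all 19258 probe sets. ATG8A (AT4G21980, APG8A in the annotation) read 9.55, 8.51 and 9.40 with MSX, against 7.39, 7.27 and 6.73 in nitrate alone. Replicate 2 was the lowest with MSX and still above the highest array of nitrate alone. The gene rose by 2.02 (4.06-fold, SE 0.48, adjusted p = 0.00651). ATG8E, ATG8C, ATG8F and APG8H (AT3G15580) rose by 1.88, 1.68, 1.40 and 1.25. APG8H is a separate gene from ATG8H (AT3G06420), which differed by 1.65 and did not pass (limma, adjusted p = 0.0511). The 5 members that did not pass lay between -0.85 and 1.65. With MSX in KCl the median of the list was 0.17 and none passed. The mean of ATG8A was 9.29 in KCl without MSX, beside 9.15 in nitrate with MSX and 7.13 in nitrate alone. Whether MSX induced autophagy was not tested. The 5 rises were lost without replicate 1 with MSX, ATG8A with an adjusted p of 0.0733, and all 5 passed without replicate 2. Genes of membrane sorting with the symbol stem VPS were grouped after their values were seen, so their count is no test. Of 9 vacuolar sorting genes VPS2.1 rose by 1.84, VPS60.1 by 1.34 and VPS46.2 by 1.25, where 8.07% of genes with a symbol rose. None of these passed without replicate 1 with MSX.

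Genes of nitrate signalling and use were few among the named probe sets. HHO1 (AT3G25790, named here from the locus list), a GARP-family repressor known for its quick induction by nitrate, read 10.16, 9.45 and 8.38 in nitrate with MSX, against 6.60, 6.98 and 5.57 in nitrate alone. The groups did not overlap. It rose by 2.94 (7.69-fold, SE 0.74, adjusted p = 0.0103), and without replicate 1 with MSX its adjusted p was 0.107. The 3 other measured regulators did not pass: NRG2 (AT3G60320) differed by 1.03, HHO2 (AT1G68670) by 0.51 and HHO3 (AT1G25550) by 0.47. The high-affinity nitrate transporter NRT2.5 differed by -0.15 and did not pass.

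None of the 3 measured genes of nitrate reduction and reductant supply passed, all of them encoding 6-phosphogluconate dehydrogenase, an enzyme of the oxidative pentose phosphate route that supplies reductant for nitrite reduction in roots. PGD3 (AT5G41670) read 12.08, 12.33 and 12.16 with MSX, against 12.46, 11.90 and 9.01 in nitrate alone. PGD1 (AT1G64190) read 12.26, 12.46 and 12.42 with MSX, against 12.53, 12.22 and 9.75. Both groups were near the top of the scale apart from replicate 3 of nitrate alone, which was low in both genes. The differences were 1.06 (SE 0.86, adjusted p = 0.425) and 0.88 (SE 0.66, adjusted p = 0.39), and PGD2 differed by -0.09. Without that array and replicate 2 with MSX they were -0.06 for PGD3 and -0.04 for PGD1.

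Single members of neighbouring pathways rose. IDH-VI (AT3G09810), a subunit of mitochondrial isocitrate dehydrogenase on the route to 2-oxoglutarate, read 9.18, 8.50 and 9.24 with MSX, against 7.3, 7.42 and 7.52, and rose by 1.56 (SE 0.48, adjusted p = 0.0344). The other 2 of 3 measured members did not pass. APS3 (AT4G14680), an ATP sulfurylase that activates sulfate, rose by 1.45 (SE 0.41, adjusted p = 0.022), 1 of 3 on its list. Its arrays overlapped, with 9.30, 8.17 and 8.55 with MSX, against 6.77, 6.71 and 8.19. GH3.3 (AT2G23170), which conjugates auxin to amino acids, read 8.89, 8.58 and 9.78 with MSX, against 7.88, 7.53 and 7.12. It rose by 1.58 (SE 0.52, adjusted p = 0.0454), as the single one of 5 on the lateral root and auxin list. IDH-VI, APS3 and GH3.3 did not pass without replicate 1 with MSX (adjusted p = 0.169, 0.198 and 0.135). Both low-oxygen genes measured missed the threshold. No named probe set was available for the lists of ammonium assimilation, ammonium transport, amino acid transport, the GABA shunt, and heat shock and chaperones.

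**Figure D4:**
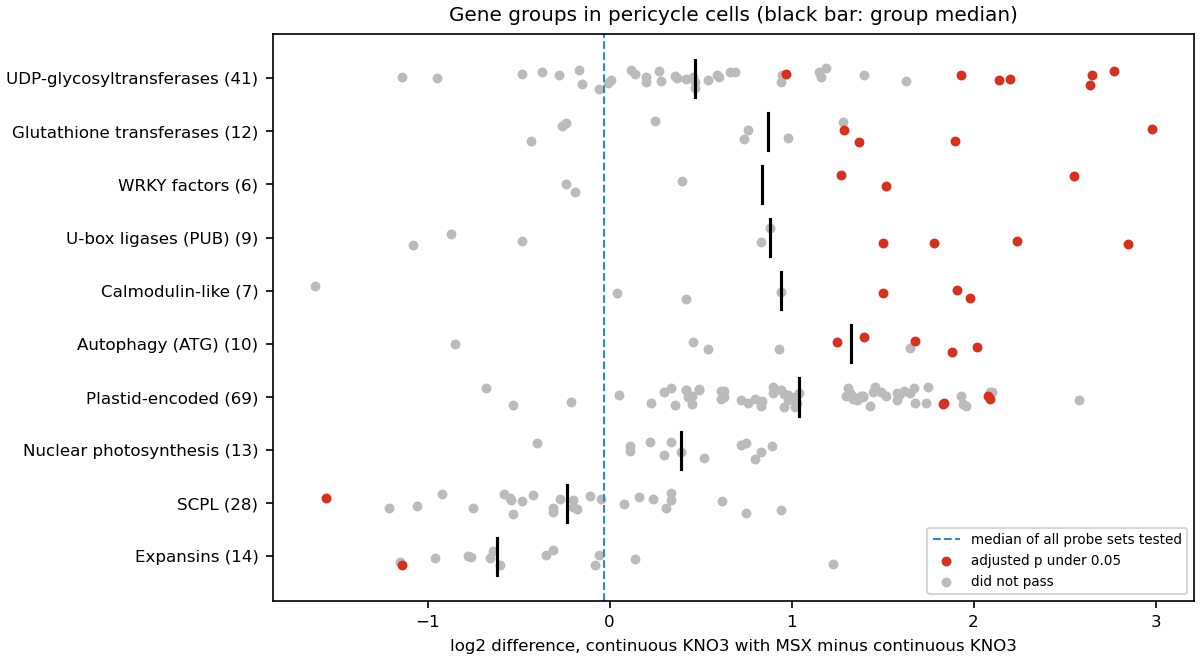
Log2 difference of continuous KNO3 with MSX minus continuous KNO3 for the measured members of 10 gene groups (number in brackets), red where limma's adjusted p was under 0.05 and grey otherwise. Black bars are group medians, which run between -0.62 for expansins and 1.33 for autophagy genes, and the dashed line is the median of all probe sets (-0.03).

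Most plastid-encoded transcripts had positive differences, though few passed. Of 69 measured, 66 were positive, with a median of 1.04 against -0.03 for all probe sets, while 4 rose and none fell. That number is close to the background, where 6.01% of probe sets rose. The 4 encode subunits of the plastid NADH dehydrogenase-like complex: ndhG (2.09), ndhE (2.08), ndhA (1.84) and ndhH (1.83). The transcripts of ndhE read 9.36, 7.53 and 9.22 with MSX, against 6.75, 6.61 and 6.5 in nitrate alone. Replicate 2 was the lowest with MSX, and all 4 calls were lost without replicate 1 with MSX. Of 13 nuclear photosynthesis genes none passed (median 0.39, 12 of 13 positive, as were 9360 of all 19258 probe sets). Replicate 3 was the highest with MSX in all of them but PORB and PSB27. PSAE-1 read 6.80, 6.35 and 9.55 with MSX, against 6.64, 7.07 and 6.59 in nitrate alone. The positive signs therefore rest largely on that array.

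The 15 strongest falls spanned 2.99- to 5.76-fold, and the 15 largest rises 4.61- to 11.9-fold. HEMA3 (AT2G31250), a glutamyl-tRNA reductase isoform, read 6.99, 7.49 and 6.97 in nitrate with MSX, against 9.94, 9.99 and 9.09 in nitrate alone, with all arrays of a group at least 1.5 log2 units from the other group. It fell by 2.52 (5.76-fold, SE 0.56, adjusted p = 0.00393). For hemb2 (AT1G44318), a 5-aminolevulinate dehydratase isoform, the levels were 6.69, 6.71 and 6.75 with MSX, against 8.58, 8.55 and 8.35. It fell by 1.77 (SE 0.59, adjusted p = 0.0497), and missed the threshold whichever of the 6 arrays was left out.

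CXE20 (AT5G62180), a carboxylesterase, read 7.33, 8.74 and 7.40 with MSX, against 10.06, 10.09 and 9.46, and fell by 2.04 (SE 0.48, adjusted p = 0.00606). Replicate 2 with MSX lay between the other MSX arrays and nitrate alone. LDL2 (AT3G13682), an LSD1-like histone demethylase, fell by 2.00, SWI3A (AT2G47620), a chromatin remodelling subunit, by 1.94, and DIM1A (AT2G47420), an rRNA dimethyltransferase, by 1.97 (adjusted p = 0.0399, 0.0115 and 0.047). HSA32 (AT4G21320), a heat-stress protein, fell by 1.96. Genes known from pollen, PLIM2a (AT2G45800) and PIPK11 (AT1G01460), fell by 1.73 and 1.66. The peptide gene CLE21 fell by 1.86, the TSO1-like gene SOL1 (AT3G22760) by 1.66, and SHN3 (AT5G25390), an AP2-domain activator of cuticle genes, by 1.58. CLE21 (4.85, 5.19 and 4.76), SOL1 (5.82, 6.37 and 6.06) and PIPK11 (5.86, 6.03 and 5.85) were under the filter value in every MSX array. PLIM2a (5.97, 6.56 and 5.79) was under it in all but replicate 2. The size of falls that end so low is uncertain. Of the 15 largest falls, HEMA3 and SHN3 passed whichever of the 6 arrays was left out. Without replicate 1 with MSX the other 13 were lost, and without replicate 2 of that group 13 of 15 passed, DIM1A and hemb2 being the exceptions.

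JKD (AT5G03150), a zinc-finger factor of ground tissue and the one marker gene that passed, read 6.99, 7.16 and 7.27 with MSX, against 8.74, 9.18 and 8.61 in nitrate alone. It fell by 1.70 (SE 0.50, adjusted p = 0.0268), and missed the threshold without replicate 1 with MSX (adjusted p = 0.135). The other 2 cortex markers did not pass, and the mean of the 3 ran at 6.73 to 7.08 with MSX, against 6.79 to 7.34. In KCl, JKD read 7.50 ± 0.39 in sorted epidermis and cortex and 7.33 ± 0.14 in sorted pericycle (SD, n = 3), so it did not mark the cortex sort here. EXPA7, a root-hair expansin and the one measured epidermis marker of 4, ran at 6.89 to 9.37 with MSX, against 6.73 to 9.62. In KCl it read 6.56 ± 0.29 in sorted epidermis and cortex, 6.73 ± 0.68 in sorted pericycle, 9.29 ± 0.14 in sorted endodermis and pericycle and 9.27 ± 0.95 in sorted stele (SD, n = 3), so it did not mark the epidermis sort here. Its high arrays were replicate 2 with MSX and replicates 1 and 2 of nitrate alone, the arrays nearest to the sort of endodermis and pericycle. The measured endodermis marker GSO1 (1 of 5) ran at 8.98 to 9.26 with MSX, against 6.56 to 8.54. In KCl it read 8.84 ± 0.66 in sorted pericycle and 8.45 ± 0.06 in sorted endodermis and pericycle. GSO1 therefore did not tell endodermis from pericycle here. The root cap marker (1 of 4) ran at 5.29 to 5.85 against 4.96 to 5.88. The stele marker LHW (1 of 4) ran at 9.56 to 10.01 against 9.88 to 12.06. In KCl it read 10.24 ± 0.73 in sorted stele, 10.33 ± 0.18 in sorted pericycle and 10.39 ± 0.88 in sorted epidermis and cortex. LHW therefore did not mark the stele sort here. No defining marker was at 0, and the part of other cell types in the result was not tested.

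In KCl, without nitrate, fewer probe sets passed with MSX: 6 rose (0.0312%) and 7 fell (0.0363%), together 0.0675% of 19258 (limma), with 1533 at an unadjusted p under 0.05. The arrays of this comparison are not shared with the nitrate comparison. The label of KCl with MSX says continuous, and that of KCl does not. Whether KCl was kept in the digestion solution of the KCl group is not given, so these groups may differ in more than MSX. Of the probe sets that rose in nitrate, 1097 of 1158 (94.7%) were also higher with MSX in KCl, against 50.9% of all probe sets. Their median was 1.70 in nitrate and 0.64 in KCl. Of those that fell in nitrate, 472 of 607 (77.8%) were lower in KCl with MSX, against 49.1% of all, with medians of -1.54 in nitrate and -0.22 in KCl. Across probe sets, which are not independent replicates, the MSX differences of the 2 comparisons correlated at r = 0.44 (rho = 0.39). There were 8 probe sets called in both, all in the same direction, 0.453% of the calls in nitrate and 61.5% of those in KCl.

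The test of the difference between the MSX effects in nitrate and in KCl called 0 probe sets (limma, smallest adjusted p = 0.644), with 1467 at an unadjusted p under 0.05 against 963 expected. The larger count in nitrate is therefore not shown to be a larger effect for any single gene. The same limit in the labels of the KCl groups holds for this test. All 15 of the largest rises were positive in KCl, between 0.64 and 1.34. Arrays did not overlap for 8 of them, where 9.76% of probe sets were separated in that direction, and none passed there. UGT76D1, which is not one of those 15, read 9.07, 8.65 and 8.40 in KCl with MSX, against 6.34, 7.86 and 7.16 in KCl, a difference of 1.58 (SE 0.37, adjusted p = 0.0718). PUB22 read 11.81, 11.50 and 11.80 in KCl with MSX, against 10.27, 9.96 and 10.88 in KCl, a difference of 1.34 (adjusted p = 0.435). The 15 largest falls behaved otherwise as values: in KCl they lay between -0.96 and 0.15, 7 of 15 below 0, and none had separated arrays, where 9.56% of probe sets were separated downward.

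**Figure D5:**
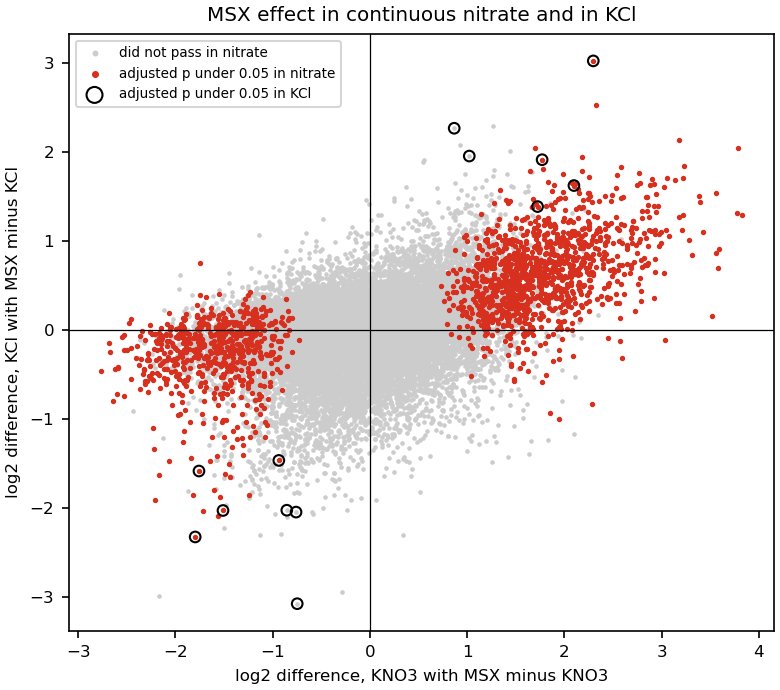
Log2 difference with MSX in continuous KNO3 (horizontal) against that in KCl (vertical) for 19258 probe sets, red where limma's adjusted p was under 0.05 in nitrate and circled where it was under 0.05 in KCl. The rises lie mostly above 0 in KCl (1097 of 1158), and the falls lie close to 0 there, with a median of -0.22.

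The called sets were also read in the other pericycle groups. They were chosen because nitrate alone differed from nitrate with MSX, which by itself sets nitrate alone apart, so these levels are a description. Probe sets that rose had a median level of 9.43, 9.10 and 9.03 in KCl with MSX and 8.42, 8.50 and 8.70 in KCl, beside 7.28, 7.32 and 6.95 in nitrate alone. In transitory nitrate they were 7.14, 7.61 and 8.80. Probe sets that fell were at 6.64, 6.69 and 7.11 in KCl with MSX and 6.96, 7.13 and 6.93 in KCl, beside 8.52, 8.50 and 8.44 in nitrate alone. In transitory nitrate they were at 8.61, 7.88 and 7.2. With transitory nitrate in place of continuous nitrate, an alternative chosen after the data were seen, 73 probe sets rose and 4 fell. That comparison uses the same 3 nitrate with MSX arrays as the main one, so it is no separate evidence. UGT73B5 (2.05, adjusted p = 0.00974), UGT76D1 (1.60, adjusted p = 0.0384) and ndhH (2.05, adjusted p = 0.0371) were the named genes that passed.

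Glutamine given with nitrate and MSX was compared with nitrate and MSX, and this comparison shares the MSX arrays with the main one, so values are set side by side. With glutamine 70 probe sets rose (0.363%) and 62 fell (0.322%), 0.685% together (limma). UGT76D1 read 6.56, 6.89 and 6.39 with glutamine, against 8.97, 8.13 and 8.12 in nitrate with MSX, and it fell by 1.80 with glutamine (SE 0.37, adjusted p = 0.0108). UGT73B5 read 6.77, 8.43 and 7.78 with glutamine and fell by 1.68 with it (SE 0.38, adjusted p = 0.0201). In these 2 genes the arrays with glutamine lay below all those with MSX, as they did in 9.57% of probe sets. UGT71C1 read 7.97, 8.50 and 7.47 with glutamine, a difference of -2.13 that did not pass (adjusted p = 0.0697), and HHO1 read 8.32, 6.61 and 6.65, likewise not passing (-2.13, adjusted p = 0.169). PUB22 read 11.87, 11.72 and 11.54 with glutamine (difference -0.10, adjusted p = 0.972) and ATG8A 9.39, 9.03 and 8.86 (difference -0.06, adjusted p = 0.983), both overlapping their levels in nitrate with MSX. Of the 15 largest falls, all had higher means with glutamine than with MSX, by 0.41 to 1.89, and none passed. These genes, like the rises above, were chosen on the same nitrate with MSX arrays. A shift back with glutamine is partly set by that choice and is no separate evidence.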

How the data were processed

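The authors deposited 1 log2 signal per probe set and array; how it was computed is not given in the sources used here. Per the labels' protocols, RNA of sorted cells went through two-cycle labelling. The 54 sorted-cell arrays were quantile normalized together, since medians of the deposited log2 values spanned 1.04. Probe sets above the 40th percentile (6.49) in at least 3 arrays were tested, 19258 of 22810 on the array (64 controls left out). A linear model with 1 coefficient per group and a shared spread was fitted with limma 3.58.1 in R 4.3.3 (eBayes with intensity trend, two-sided, Benjamini-Hochberg adjusted p of 0.05 over all tested probe sets). SE are limma's. With 3 arrays against 3, an exact permutation test cannot go below p = 0.1, and the number of arrays limits the precision. The platform annotation gives no gene for 38.6% of probe sets, which are unnamed here; 13513 have 1 gene and 503 several, and those with several were left unnamed. Named are the 15 largest rises and falls that passed, had a symbol and had groups that did not overlap, members of gene lists, and members of families; 55 of 203 listed loci had a probe set. The members and lists were chosen with earlier results of these data known, and families so marked after their values were seen. The limma steps were tested on simulated data. Alternatives covered scaling, filter, arrays fitted, covariates, weights, replicate block and single arrays left out. Figures used matplotlib 3.10.9. No coordinates or sequences were used.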

Additional observations from a re-analysis of the deposited data

How the results depend on the processing

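The named genes that passed, 66 in all, kept their direction in each of the 22 alternatives in which they were tested. With the filter at the 60th percentile 64 were tested, without CLE21 and EXPA21. These fits share arrays with the main one, so the kept directions are no separate evidence. UGT73B5 and UGT76D1 passed in all 22 alternatives, and 16 genes passed whichever array was left out. The 1765 probe sets became 1059 with normalization and fit on the 18 pericycle arrays, 1038 with the fit alone on them, 287 with the 6 compared arrays, 2809 without 2 sorted arrays of other populations that stood apart, 448 with array signal as a covariate and 13118 with array weights, whose estimate did not converge. Leaving out single arrays gave 237 to 3374. Chosen after the data were seen, leaving out both arrays named in the results gave 3982 and transitory nitrate as the comparison 77. Same-numbered replicates deviated together at -0.16, 0.44 and 0.30, so the numbers were not taken to pair the arrays; the replicate block gave 865 on the 18 pericycle arrays and 1886 on the 6. Deposited values gave 2433 and a common median 2560. In KCl the 13 became 48 on deposited values, 1 with normalization or fit on the 18 pericycle arrays or with the compared arrays, 23, 67, 4 and 1178 without the 2 sorted arrays, with array signal, with GAPDH 3' minus 5' and with weights, 0 and 1 with the replicate block, and 2 to 12 with single arrays left out. The 0 for the difference between nitrate and KCl was 8648 with weights and 0 otherwise. For glutamine the 132 became 230 on deposited values, 25 and 26 on the 18 arrays, 20 with the compared arrays, 322 without the 2 sorted arrays, 596 with array signal, 8000 with weights, 24 and 2 with the replicate block, and 15 to 244 with single arrays left out. Among genes that did not pass, the sign turned for HHO3 on deposited values (-0.12) and with array signal (-0.09), for HHO2 on deposited values (-0.20), with array signal (-0.07) and with transitory nitrate (-0.17), for PGD2 with a common median (0.19), without both arrays (0.02) and, where single arrays left out gave -0.17 to 0.00, without replicate 2 with MSX, for PGD3 with weights (-0.29) and without both arrays (-0.06), for PGD1 likewise (-0.17 and -0.04), for NRT2.5 with weights (0.18), with transitory nitrate (0.21) and, where single arrays left out gave -0.34 to 0.02, without replicate 3 of nitrate alone, and for XPP with transitory nitrate (-0.20). The cause of these changes was not tested, apart from the smaller number of arrays in some fits. Scan date as a block was not run, since the files give no dates.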

Other observations

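SUFE2 (AT1G67810), which activates the cysteine desulfurase of plastid iron-sulfur cluster assembly, was chosen after its values were seen, as the single gene with a symbol among the 13 probe sets called in KCl. It rose with MSX by 1.91 in KCl (limma, adjusted p = 0.0487) and by 1.77 in nitrate (adjusted p = 0.00582).

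Families without a run of calls, grouped after their values were seen, had mostly negative differences in nitrate with MSX, the trichome birefringence-like genes excepted. Of 14 expansins 2 were positive (median -0.62), and EXPA21 fell by 1.14 (limma, adjusted p = 0.0185), where 2.52% of genes with a symbol fell. It read 5.89, 6.37 and 5.74 in nitrate with MSX, against 7.06, 7.63 and 6.75 in nitrate alone. Its MSX arrays were all under the filter value, so the size of its fall is uncertain. Of 15 IQ-domain genes 3 were positive (median -0.56), yet IQD22 rose by 1.80. Of 28 serine carboxypeptidase-like genes 9 were positive (median -0.24), and SCPL32 fell by 1.56. Each of these 3 calls was lost without replicate 1 with MSX. Of 22 trichome birefringence-like genes none passed (median 0.13).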
